A study of Homo sapiens with 6 samples.

Results

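Replication-dependent histone genes encode the linker histone H1 and the core histones H2A, H2B, H3 and H4 that package newly copied DNA. They were taken here as every protein-coding gene of the count table whose symbol is H1-1 to H1-6 or begins with H2AC, H2BC, H3C or H4C and a number. Of the 60649 gene rows, 68 were such genes, namely 6 H1, 15 H2A, 19 H2B, 13 H3 and 15 H4 genes. H2AC18 and H2AC19 had no matching row.

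RNA was sequenced from the epithelial ovarian cancer cell line OVCAR5, an established human line. In 3 libraries the cells stably overexpressed METTL3, the catalytic subunit of the enzyme that places N6-methyladenosine on RNA, after lentiviral transduction (METTL3 libraries). In the other 3 the cells had received empty-vector lentivirus (vector libraries). All of these cells were selected with puromycin, although a line of the design text calls the control cells parental, and no drug treatment is named for them. The labels do not say whether the libraries of a group came from separate transductions or cultures, so the p-values below measure only the spread between these libraries.

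Histone supply is tied to DNA replication. The genes of this family lie in clusters, have no introns in their coding part, and are transcribed mainly in S phase at histone locus bodies organised by NPAT and CASP8AP2. Their messenger RNAs normally end in a conserved stem-loop instead of a poly(A) tail, cut with the help of the stem-loop binding protein SLBP and of the U7 particle, whose proteins include LSM10 and LSM11, with the zinc-finger protein ZNF473. The labels name enrichment of polyadenylated mRNA and the paper names mRNA enrichment without its kind, so, going by the labels, what was counted is the histone transcripts that passed that selection and not total histone mRNA.

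The stem-loop is shown first because it separates these genes from polyadenylated ones and because the H4 genes carry a form of their own. It was searched in the GENCODE release 44 gene models on GRCh38 as 16 bases in which the first 6 pair with the last 6. A match also had to begin with GG and its loop with TT, so these letters and the closing CC were set by the search. A match lay within 22 to 62 bases (median 35) of the stop codon in 62 of the 68 genes. The matches had 5 different sequences, written here 5′ to 3′ on the coding strand, with the paired stem in capitals and the loop in lower case.
Stem-loop of 38 H1, H2A, H2B and H3 genes: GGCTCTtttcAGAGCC
Stem-loop of 9 genes with an a in the loop: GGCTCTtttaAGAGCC
Stem-loop of H2AC20: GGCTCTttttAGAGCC
Stem-loop of 10 H4 genes: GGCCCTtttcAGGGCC
Stem-loop of H4C9, H4C12, H4C14 and H4C15: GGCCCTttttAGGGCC
The stem ending in AGAGCC was found in 48 genes and in 0 H4 genes, and the stem ending in AGGGCC was found in 14 H4 genes and in 0 genes of another type. The most abundant gene, H2BC12, carried its copy at chr6:27146366-27146381 on the minus strand, 36 bases after the stop codon. For H1-2 it lay at chr6:26055744-26055759 on the minus strand and for H4C9 at chr6:27139654-27139669 on the plus strand. H2AC11, H2AC15, H2BC10, H2BC12L, H3C6 and H4C13 had no match in their annotated ends.

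The 5′ flanks carry shared sequence of another kind. RefSeq promoters (GRCh38.p14, 250 bases before to 50 after the start) were matched for 62 of the 68 genes and searched on both strands for TATAAA, the TATA box, CCAAT, bound by the factor NF-Y, and ATTTGCAT, the octamer bound by POU2F1. None of these motifs contains another. CCAAT was present in 100% of the H1, H2A, H2B and H3 promoters matched and in 23.1% of the H4 promoters, beside 35.7% of all 27305 promoters. ATTTGCAT was present in 78.6% of H2A and 77.8% of H2B promoters and in 0 H1, H3 or H4 promoters, beside 1.8% of all. TATAAA was present in 66.1% of the 62, beside 12% of all. The windows of H2A and H2B genes with diverging starts overlap, so a motif between the starts was counted for both genes where both were matched.

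A promoter of each type is shown with these motifs in capitals, so that their spacing can be read. Each of the first 4 sequences holds the 130 bases before the RefSeq start, on the strand of the gene, and the last one holds the 245 bases between the diverging starts of H2AC6 and H2BC4, on the plus strand.
H1-2, chr6:26056471-26056600, minus strand: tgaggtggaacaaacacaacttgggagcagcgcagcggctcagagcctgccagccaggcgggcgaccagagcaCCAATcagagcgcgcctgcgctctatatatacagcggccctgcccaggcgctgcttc
H2BC12, chr6:27146856-27146985, minus strand: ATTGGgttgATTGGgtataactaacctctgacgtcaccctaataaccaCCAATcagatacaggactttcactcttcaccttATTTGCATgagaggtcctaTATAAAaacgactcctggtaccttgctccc
H3C10, chr6:27809921-27810050, plus strand: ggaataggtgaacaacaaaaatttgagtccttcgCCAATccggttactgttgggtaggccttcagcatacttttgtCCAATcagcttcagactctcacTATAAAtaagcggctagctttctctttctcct
H4C9, chr6:27139152-27139281, plus strand: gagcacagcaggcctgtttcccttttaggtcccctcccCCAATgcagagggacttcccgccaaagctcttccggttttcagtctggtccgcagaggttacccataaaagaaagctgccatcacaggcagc
H2AC6 and H2BC4, chr6:26123927-26124171: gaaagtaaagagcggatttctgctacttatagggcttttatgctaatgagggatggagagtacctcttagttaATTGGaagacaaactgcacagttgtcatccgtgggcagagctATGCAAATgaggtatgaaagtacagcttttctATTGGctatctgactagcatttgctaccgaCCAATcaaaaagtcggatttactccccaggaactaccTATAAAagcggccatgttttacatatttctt
ATTGG and ATGCAAAT in capitals are CCAAT and ATTTGCAT on the other strand. A match of letters is given as a description of the window, not as a bound site.

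Total counts ranged from 96633925 to 125463386 per library. METTL3 itself was at 152.4, 165.5 and 175.3 CPM (counts divided by the TMM-scaled library total, times 1000000) in METTL3 replicates 1, 2 and 3, above the 80.6, 68.6 and 71.6 CPM of the vector replicates (two-sided exact permutation test, p = 0.1, which is the lowest value such a design can give). All 6 epithelial markers examined, including KRT8, EPCAM and CDH1, were present in every library, summing to 7172 to 8176 CPM in METTL3 and 5820 to 9075 CPM in vector libraries. The 10 markers of leukocytes, endothelium and fibroblasts summed to 56.1 to 76.0 CPM and 50.8 to 83.4 CPM. LYZ, at a mean of 39.6 CPM, and COL1A1, at 15.8 CPM, made most of the latter, and PTPRC, CD3E and DCN, at 0.037, 0.0145 and 0.0175 CPM, were at 0 in some libraries.

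The histone genes as a whole were scarce in these libraries, and a few of them held most of the signal. Summed over the 68 genes, the level was 168.2, 108.2 and 107.2 CPM in METTL3 replicates 1, 2 and 3, and 147.4, 96.5 and 97.7 CPM in vector replicates 1, 2 and 3. Replicate 1 was the highest library of each group, and the groups overlapped. By contrast the polyadenylated variants H2AZ1, H3-3A and H3-3B, which are made outside S phase too, together reached 1016 to 1497 CPM.

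Only 16 of the genes averaged at least 1 CPM over the 6 libraries and 5 averaged at least 10 CPM. The 5 were H2BC12 at 17.3, H2AC6 at 14.2, H1-2 at 12.7, H2BC5 at 12.6 and H2AC25 at 12.4 CPM, which made 57.3% of the summed histone CPM. The 10 genes with the highest CPM made 80.1% of it.

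At the other end, H2AC15, H2BC1, H3C7, H4C6 and H4C7 had 0 counts in every library. A count of 0 allows up to 3 counts, that is 0.0242 to 0.0316 CPM per library, a limit that covers counting error only. It takes counts as independent, and because most low counts were even it may be too low. A further 15 genes had between 1 and 59 counts over all libraries together. The low-count filter of edgeR kept 46 genes for testing, 4 H1, 9 H2A, 15 H2B, 8 H3 and 10 H4, and the statements on tests below concern these and not the 22 that were too low.

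CPM grow with the length of a gene, so to set genes side by side their levels were expressed as CPM per kilobase of annotated exon. On that scale H2BC12 led at 34.9, followed by H1-2 at 17.4, H2AC11 at 15.5, H2BC5 at 14.6 and H4C9 at 13.4 CPM per kilobase. H2AC6 and H2AC25, with 1668 and 1850 exonic bases, were at 8.54 and 6.72 CPM per kilobase. In the plot of levels per length, H2BC12 stands apart, the neighbours H1-2, H2AC11, H2BC5 and H4C9 have overlapping ranges over the libraries, and most genes lie under 1 CPM per kilobase.

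**Figure D1:**
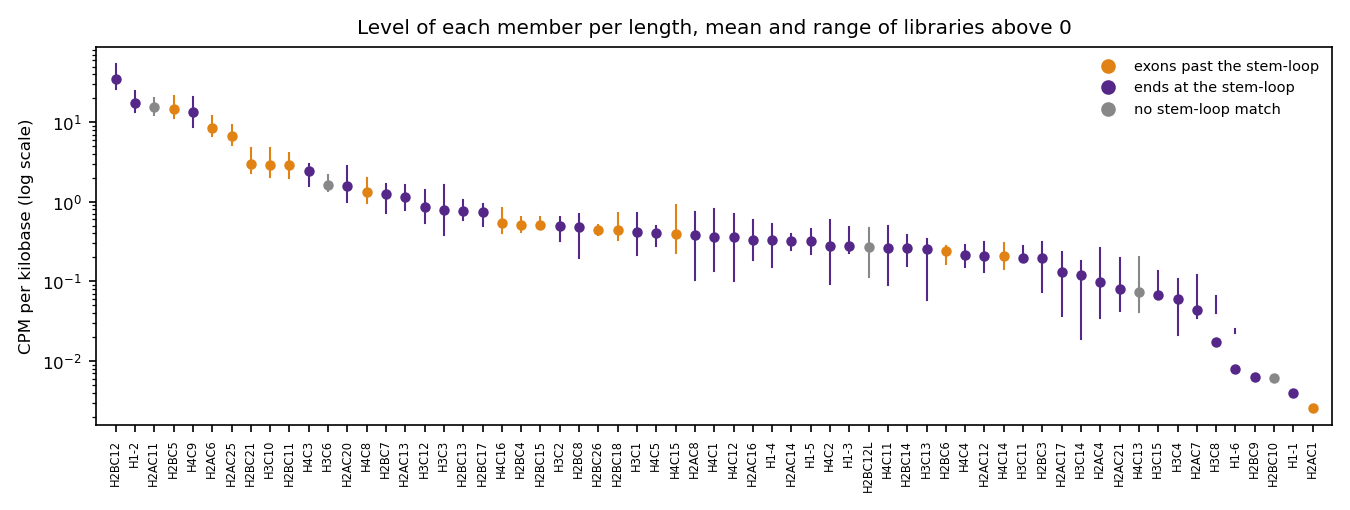
Level of each replication-dependent histone gene with a count, as CPM per kilobase of exon on a log axis; points are means of the 6 libraries, lines the range of libraries above 0, and colours how the gene model ends relative to the stem-loop. H2BC12 leads at 34.9 CPM per kilobase, and the mean can lie under the line where some libraries were at 0.

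The gene models differ in how they end, and this split was made after the levels were known. In 46 genes the annotated exons end at the stem-loop, and in 16 genes more than 100 further exonic bases are annotated past it, as for H2AC6, with 1128 bases, H2BC21, with 1729, and H4C8, with 1655. Their median levels per length were 0.523 CPM per kilobase for the 16 genes and 0.279 CPM per kilobase for the 46, among which H2BC12, H1-2 and H4C9 were the highest. Of the summed CPM, to which longer exons contribute more reads, the 16 genes held 53.9% and the 46 held 36.1%. The 6 genes without a stem-loop match held the remaining 10.1%, mainly H2AC11 and H3C6.

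By position, 55 of the genes lie on chromosome 6 between 25723397 and 27893891 and held 78.8% of the summed level. On chromosome 1, 9 genes between 149782689 and 149887965 held 7.92%, and the pair H2AC25 and H2BC26, between 228434777 and 228463104, held 12.1%. H4C16 lies on chromosome 12 and H2BC12L on chromosome 21.

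An H2A and an H2B gene diverged from starts 170 to 251 bases apart in 12 cases, and the partners were often unequal. H2AC12 was at 0.209 CPM per kilobase and its partner H2BC12 at 34.9. H2AC6 was at 8.54 CPM per kilobase and H2BC4, which shares the 245 bases printed above, at 0.508. H2AC11 was at 15.5 CPM per kilobase and H2BC11 at 2.87. The pairs within 1.5 times of each other on this scale were low, H2AC14 and H2BC14 at 0.321 and 0.263 CPM per kilobase, H2AC8 and H2BC8 at 0.378 and 0.477, and H2AC13 and H2BC13 at 1.15 and 0.775.

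Histone genes are near copies, which limits what a read can be assigned to. For 15 of the 68 genes more than 50% of the 50-base stretches of the transcript also occur in a transcript of another gene, and for 28 genes none does. The share was 57.2% for H2BC12, 98.3% for H2BC12L, 92.6% for H4C12 and 100% for H4C15, whose values are uncertain for this reason. It was 0 for H1-2, H2AC8 and H3C10, 0.4% for H2AC6 and 2% for H4C9. How reads that match several genes were counted is not given in the sources used here.

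The first comparison asks whether the histone genes changed with METTL3 overexpression. None of the 46 tested genes was called by edgeR's quasi-likelihood test on all 6 libraries (Benjamini-Hochberg adjusted p under 0.05), against 0% of the 22038 genes tested in either direction. Because that test did not call the overexpressed METTL3 either, a lack of calls does not show that the histone genes were unchanged. The paper reports many altered genes for METTL3 overexpression. DESeq2, which called 1.28% of all genes, called 0 of the 46. At an unadjusted p under 0.05, 1 histone gene was higher, H2BC12L, and 2 were lower, H1-4 and H4C12, where the background was 4.4% of genes higher and 3.91% lower. Among the tested genes 32 had a positive and 14 a negative log2 fold change, with a median of 0.11, beside −0.02 for all genes. With the replicate number as a block 34 were positive and 12 negative (median 0.13). The balance without a block moved when a library was left out, which also changed the weight of replicate 1 in its group. It turned to 23 positive and 26 negative without METTL3 replicate 1 (median −0.02) and to the same counts without vector replicate 3 (median −0.01), and it rose to 42 positive and 4 negative without vector replicate 1 (median 0.41), 36 and 11 without METTL3 replicate 2 (median 0.24) and 36 and 13 without METTL3 replicate 3 (median 0.18).

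By type, the mean summed level of H1 was 0.948 times that of the vector libraries with METTL3 and that of H2B was 1.22 times. The H1 difference was smaller than the SD of either group. The H2B difference was smaller than the SD of the METTL3 group and larger than that of the vector group. All of these SDs include the high replicate 1. Summed H1 was at 17.8, 10.4 and 11.0 CPM in METTL3 replicates 1, 2 and 3 and at 19.1, 10.9 and 11.4 CPM in the vector replicates (means 13.1 ± 4.09 and 13.8 ± 4.56, SD, n = 3). H2B was at 70.4, 45.4 and 44.3 against 54.2, 39.0 and 38.2 CPM (means 53.4 ± 14.8 and 43.8 ± 9.01, SD, n = 3). In each type the groups overlapped, since replicate 1 of either group exceeded replicates 2 and 3 of the other.

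Within a replicate number the ratio of METTL3 to vector was steadier. It was 1.30, 1.16 and 1.16 for H2B in numbers 1, 2 and 3, and 0.933, 0.956 and 0.965 for H1. H3 gave 1.20, 1.13 and 1.04, H4 gave 1.22, 1.09 and 1.104, and H2A gave 1.01, 1.14 and 1.08. Summed over all the histone genes, the ratio was 1.141, 1.122 and 1.097. These ratios carry no test.

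**Figure D2:**
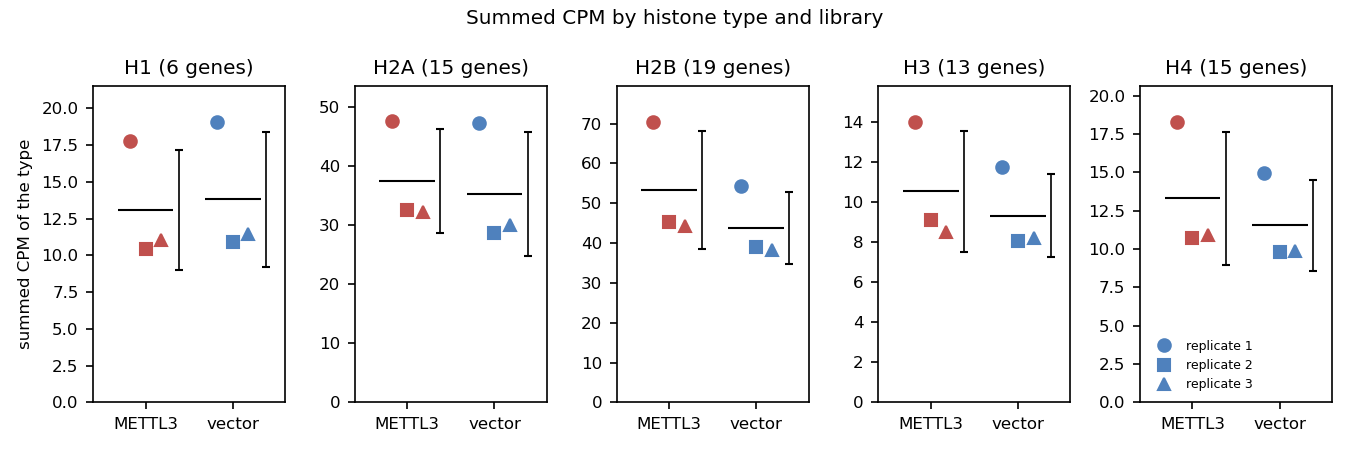
Summed CPM of each histone type in every library, on a separate linear axis from 0 for each type; the line is the group mean and the bar its SD (n = 3), with METTL3 in red and vector in blue. In every type the circle of replicate 1 lies above the other 2 libraries of its group, and the groups overlap.

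H2A and H2B form the dimers at the flanks of the nucleosome. H2BC12, the most abundant of them, was at 26.5, 15.6 and 14.97 CPM in METTL3 replicates 1, 2 and 3 and at 20.9, 13.0 and 12.8 CPM in the vector replicates. Its log2 fold change was 0.29 (SE 0.273, adjusted p = 0.761, edgeR). H2BC5 was at 18.4, 12.3 and 10.9 against 14.3, 9.61 and 10.2 CPM, with a log2 fold change of 0.29 (SE 0.236, adjusted p = 0.728). For each of these genes METTL3 exceeded vector at every number while the groups overlapped.

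The third most abundant H2B gene differed from this. H2BC21 was at 10.6, 6.21 and 6.41 CPM in METTL3 replicates and at 5.51, 5.93 and 5.13 CPM in vector replicates, so that its groups did not overlap (log2 fold change 0.48, SE 0.227, adjusted p = 0.616, edgeR). H2BC7, H2BC26 and H2BC12L did not overlap either, all with METTL3 above, and among the 46 tested genes these 4 were 8.70%, where 8.47% of all genes had METTL3 above without overlap. On the lower side H1-4 and H4C12 did not overlap, 4.35% of the tested histone genes against 8.93% of all genes.

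Among H2A genes, H2AC6 was at 19.96, 12.2 and 11.96 CPM in METTL3 and at 18.4, 11.3 and 11.6 CPM in vector replicates (log2 fold change 0.10, SE 0.261). H2AC25 was at 15.4, 11.0 and 10.9 against 16.8, 9.52 and 11.0 CPM. H2AC11 was at 10.0, 7.38 and 7.27 against 8.78, 6.26 and 5.98 CPM. No group stood clear of the other in any of these.

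H3 and H4 make up the core tetramer. H3C6 was at 5.83, 3.99 and 4.20 CPM in METTL3 and at 4.26, 3.65 and 4.39 CPM in vector replicates, and H3C12 ranged from 0.471 to 1.19 CPM over the 6 libraries. H4C9 was at 8.13, 5.01 and 4.71 against 6.46, 3.42 and 4.26 CPM (log2 fold change 0.34, SE 0.294, adjusted p = 0.746, edgeR). H4C16, which lies outside the clusters, was at 2.06, 1.01 and 1.05 against 1.33, 1.05 and 1.41 CPM. All of these groups overlapped.

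Linker histone H1 binds where DNA enters and leaves the nucleosome, and H1-2 made nearly all of its signal. It was at 17.0, 9.88 and 10.4 CPM in METTL3 and at 17.9, 10.1 and 10.9 CPM in vector replicates (log2 fold change −0.06, SE 0.281, adjusted p = 0.962, edgeR). H1-4, at 28, 21 and 12 counts against 39, 36 and 32 counts, and H1-5, at 24, 22 and 34 against 34, 28 and 21 counts, were both under 0.5 CPM. Only H1-4 had groups that did not overlap.

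With replicates 2 and 3 of each group alone, a choice that followed from earlier results of these data, the spread was smaller and 1 histone gene was called in each direction among 48 tested. H2BC12 was higher with METTL3 (log2 fold change 0.24, SE 0.0767, adjusted p = 0.0461, edgeR), where 6.66% of all genes were called higher. H4C12 was lower (−2.18, SE 0.627, adjusted p = 0.0298), at 7 and 4 counts against 20 and 30 counts, where 8.59% of all genes were called lower. In this fit 38 of the 48 genes had a positive and 10 a negative log2 fold change, with a median of 0.22. Over all genes 10887 were positive and 11159 negative, with a median of −0.0033. Both called genes share most of their transcript stretches with other genes.

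**Figure D3:**
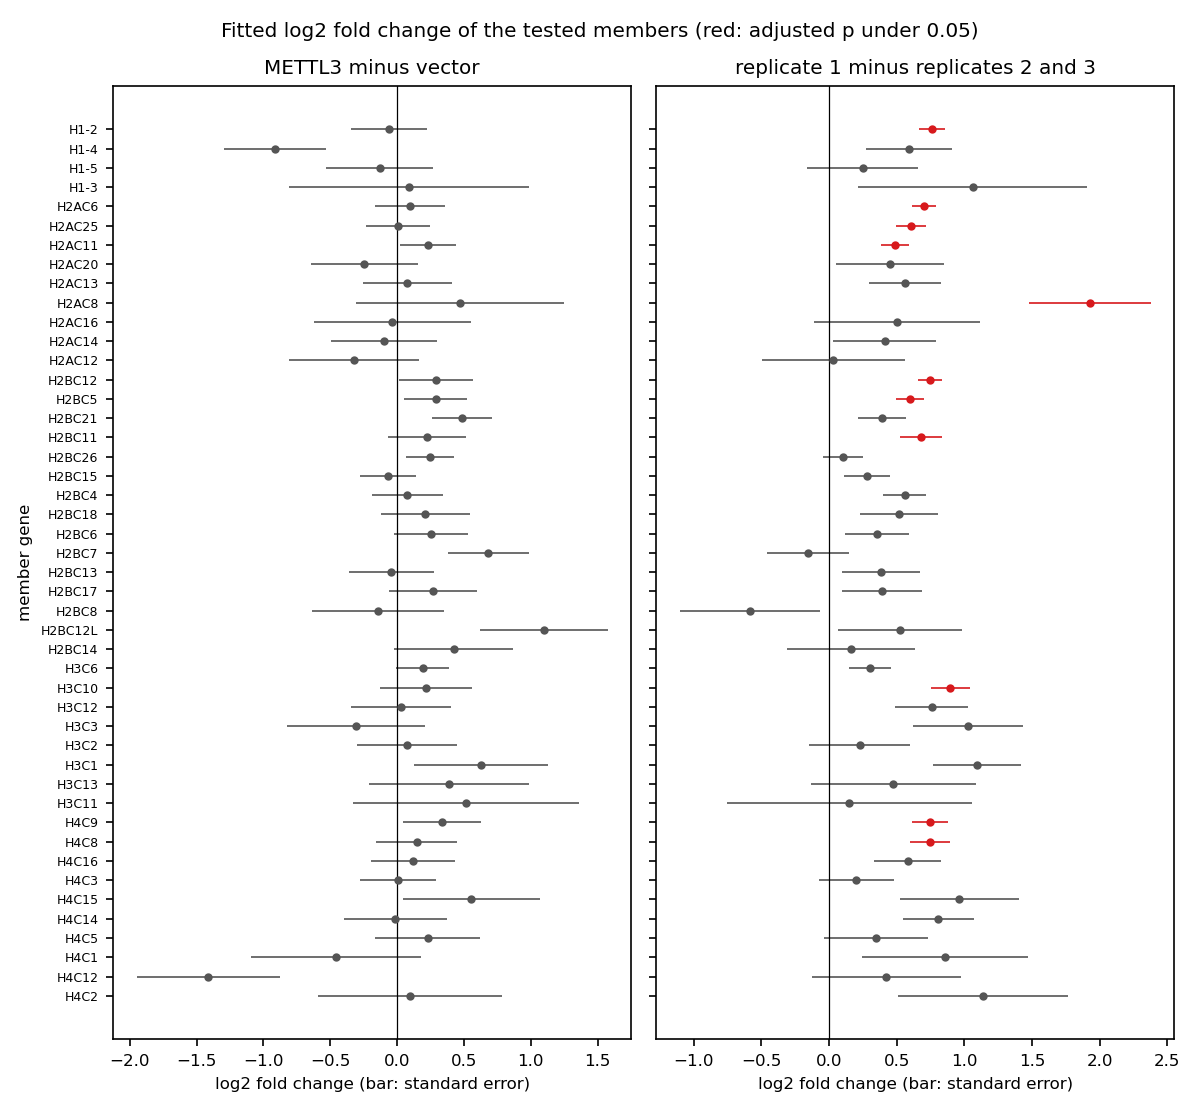
Fitted log2 fold change of the 46 tested histone genes with its standard error, for METTL3 minus vector at left and replicate 1 minus replicates 2 and 3 at right; red marks an adjusted p under 0.05. At left no gene is red and values fall on both sides of 0, and at right 11 are red and 44 lie above 0.

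The second comparison describes replicate 1 of each group against replicates 2 and 3, with the group as a covariate. It was made because replicate 1 was already known to stand apart in these data, so it gives no independent evidence for that. Histone genes of all types were higher in replicate 1. Of the 46 tested, 11 were called higher and 0 lower, against 4.25% of all genes higher and 4.81% lower. The median log2 difference was 0.52, beside 0.04 for all genes, and 44 of the 46 were positive. The 2 negative ones were H2BC7 and H2BC8.

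Those called were H1-2 among H1 genes, H2AC6, H2AC25, H2AC11 and H2AC8 among H2A, H2BC12, H2BC5 and H2BC11 among H2B, H3C10 among H3, and H4C9 and H4C8 among H4. Of the 16 genes with a mean of at least 1 CPM, 10 were called and 16 were positive, and of the 30 lower genes 1 was called and 28 were positive.

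H2BC12 had the smallest adjusted p among them, being at 26.5 and 20.9 CPM in replicate 1 of METTL3 and vector and between 12.8 and 15.6 CPM in the other 4 libraries. Its log2 difference was 0.74 (SE 0.0905, adjusted p = 0.00642, edgeR). H1-2, at 17.0 and 17.9 CPM against 9.88 to 10.9 CPM, differed by 0.76 (SE 0.0964, adjusted p = 0.00703). In both genes replicate 1 lay above every other library.

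The same held for H2AC6, at 19.96 and 18.4 CPM against 11.3 to 12.2 CPM (log2 difference 0.70, SE 0.0917, adjusted p = 0.00758, edgeR). H3C10, a gene with 769 exonic bases past its stem-loop, was at 5.86 and 4.63 CPM against 2.60 to 3.20 CPM (0.89, SE 0.146, adjusted p = 0.0145). H4C9, whose model ends at the stem-loop, was at 8.13 and 6.46 CPM against 3.42 to 5.01 CPM (0.75, SE 0.132, adjusted p = 0.0187). Genes of either kind of annotated end were thus called.

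H4C8 was at 4.25 and 3.62 CPM against 2.11 to 2.58 CPM (0.74, SE 0.149, adjusted p = 0.0267, edgeR). The H2A gene H2AC8 showed the greatest log2 difference, 1.93 (SE 0.448, adjusted p = 0.0416), on low counts, 40 and 37 in replicate 1 against 20, 16, 6 and 6. It shares no 50-base stretch with other transcripts.

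Replicate 1 of both groups lay above all 4 other libraries in 21 of the 46 genes, against 17% of all genes, and below them in 0, against 15.4% of all genes. Within each group taken by itself, replicate 1 exceeded the mean of replicates 2 and 3 in 37 of the 46 genes with METTL3 and in 40 with vector, and in 31 in both. Summed over all 68 genes the ratio of replicate 1 to the mean of the others was 1.56 with METTL3 and 1.52 with vector. The summed ratio by type ran from 1.47 for H2A to 1.69 for H4 with METTL3, and from 1.40 for H2B to 1.71 for H1 with vector.

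By annotated end, 15 of 15 tested genes with exons past the stem-loop were positive, with a median of 0.60 and 6 called, and 26 of 28 tested genes ending at the stem-loop were positive, with a median of 0.46 and 4 called. The call count rested on single libraries. It was 0 without METTL3 replicate 2 and 0 without vector replicate 3, 3 without METTL3 replicate 3 and 4 without vector replicate 2, where the share of all genes called in either direction also fell, from 9.06% to 1.15%, 1.02%, 2.75% and 3.39%. It was 15 without METTL3 replicate 1 and 15 without vector replicate 1, where 40.2% and 26.1% of all genes were called, while the median log2 difference stayed between 0.43 and 0.56 with any library left out.

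**Figure D4:**
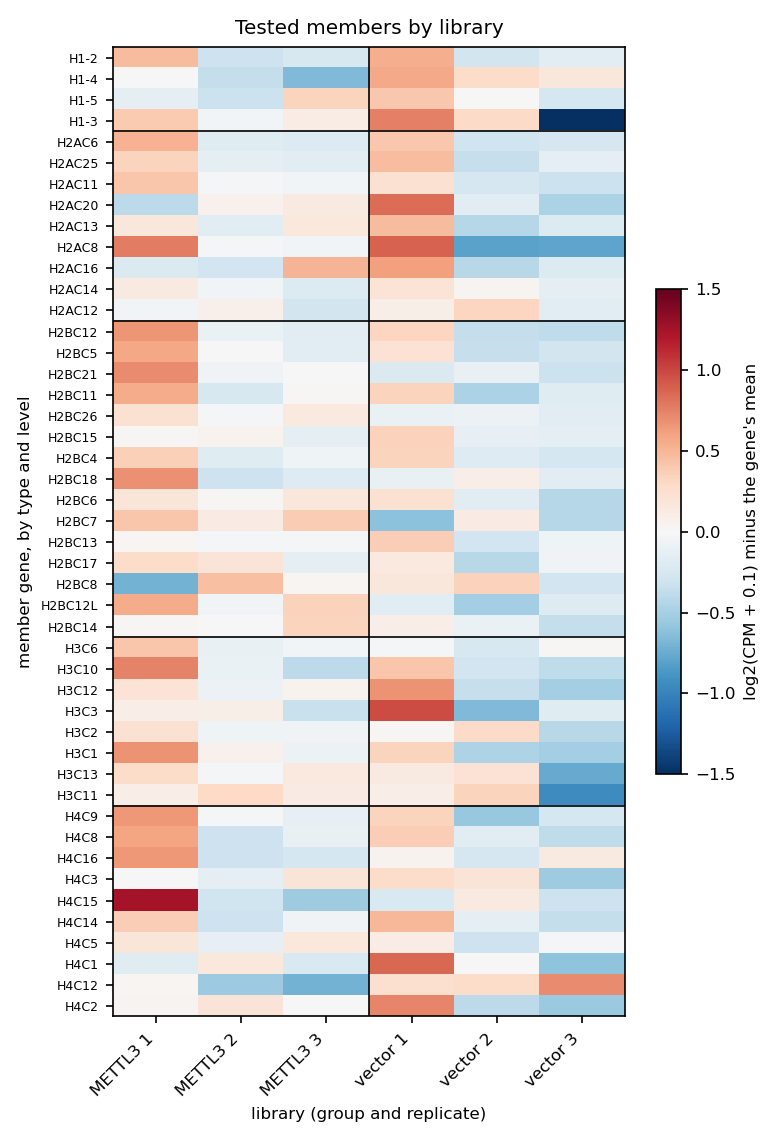
Level of each tested histone gene in each library as log2(CPM + 0.1) minus the gene's mean over the 6 libraries, with genes in rows by type and colours limited to 1.5 in either direction. Columns METTL3 1 and vector 1 are mostly red, and the other 4 columns are mostly pale or blue.

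None of the cell cycle genes examined was called higher in replicate 1. Among 30 S phase genes 0 were called higher and 1 lower, RRM2, a subunit of ribonucleotide reductase. Among 20 genes of G2 and M phase 0 were higher and 3 lower, the mitotic regulators CDC20, PLK1 and AURKB. Summed S phase genes were at 3726, 4352 and 4389 CPM in METTL3 replicates 1, 2 and 3, and with vector they were at 4812, 4119 and 4162 CPM. Replicate 1 was thus the lowest library with METTL3 and the highest with vector, whereas the histone sum was highest in replicate 1 of both. In bulk RNA a larger share of cells in S phase and more histone RNA per cell cannot be told apart.

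**Figure D5:**
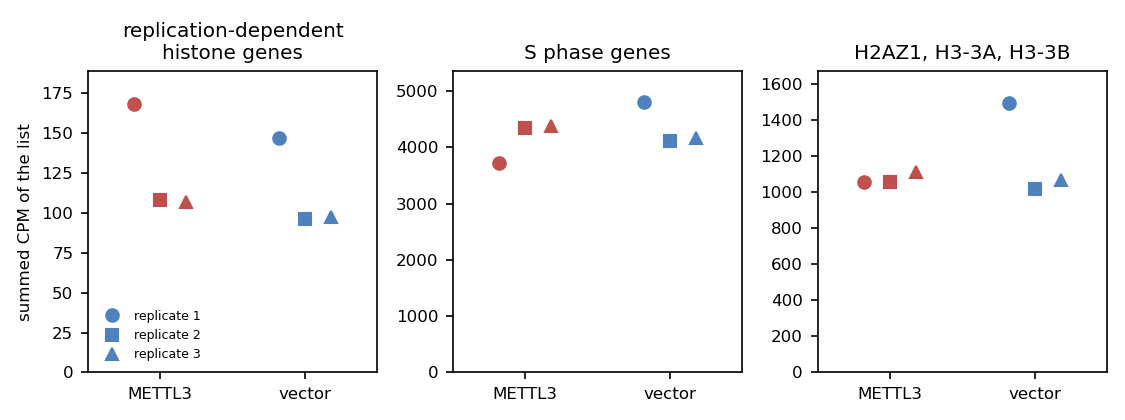
Summed CPM per library of the 68 replication-dependent histone genes, of 30 S phase genes and of H2AZ1, H3-3A and H3-3B, on linear axes from 0, with METTL3 in red, vector in blue and symbols for the replicate number. Replicate 1 is the highest library of both groups in the left panel, and in the other panels it is the highest with vector and not with METTL3.

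Factors that make and process histone mRNA were also measured. Of 20 such genes 1 was called higher in replicate 1, MIF4GD, a partner of SLBP in translation, and 1 lower, SRRT, which links the cap-binding complex to processing. SLBP was at 105.8, 103.6 and 104.8 CPM in METTL3 replicates 1, 2 and 3, and with vector at 142.7, 95.4 and 103.3 CPM (log2 difference of replicate 1 of 0.28, SE 0.125, adjusted p = 0.199, edgeR). NPAT was between 32.9 and 41.4 CPM and CASP8AP2 between 34.8 and 40.1 CPM over the 6 libraries. LSM10 was between 25.9 and 41.5, LSM11 between 10.9 and 13.3 and ZNF473 between 14.7 and 19.7 CPM. Among 15 histone chaperones 0 were called in either direction.

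Replication-independent histone genes mostly give polyadenylated transcripts. H2AZ1 was at 259.3, 296.1 and 318.9 CPM in METTL3 and at 397.0, 294.9 and 319.0 CPM in vector replicates, so replicate 1 was the lowest of its group with METTL3 and the highest with vector. H3-3A was at 170.7, 172.9 and 179.1 against 229.1, 186.3 and 193.3 CPM, and H3-3B at 628.1, 589.4 and 614.5 against 870.5, 535.2 and 557.7 CPM. None of these 3 was called in replicate 1 (adjusted p from 0.15 to 0.791, edgeR). Of 9 other genes of this kind 2 were called higher, H2AJ (log2 difference 0.60) and MACROH2A2 (0.70). That is 22.2%, beside 23.9% of the tested replication-dependent genes and 4.25% of all genes. Of the 9, 7 were positive and 2 negative, with a median of 0.14. The 6 epithelial markers were also all positive in replicate 1, with a median of 0.36, and 0 of them were called.

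A transcript of another class without a poly(A) tail was also higher in replicate 1 of both groups, by a larger ratio than the histone sum. RN7SL1, the RNA of the signal recognition particle, was at 84.1, 32.1 and 24.0 CPM in METTL3 and at 140.7, 27.0 and 20.8 CPM in vector replicates (log2 difference of replicate 1 of 2.10, SE 0.227, adjusted p = 0.00508, edgeR). It was the only one of 6 such RNAs with counts, since RN7SK and RMRP, with RPPH1, RN7SL2 and RNU7-1, were listed at 0 in all libraries. Whether the completeness of poly(A) selection had a part in the histone result was not tested.

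The third comparison asks whether the METTL3 effect was the same in replicate 1 as in replicates 2 and 3, by the interaction of group and replicate 1. With 1 library per group in replicate 1, its spread comes from replicates 2 and 3. Of the 46 histone genes 2 were called higher and 1 lower, against 14.7% of all genes higher and 15.5% lower, that is 4.35% and 2.17% of the tested histone genes. The median over the 46 was −0.13, beside 0.00094 for all genes.

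H2BC21 was higher in this sense (0.75, SE 0.185, adjusted p = 0.00769, edgeR), being at 10.6 CPM with METTL3 and 5.51 CPM with vector in replicate 1 and between 5.13 and 6.41 CPM elsewhere. H4C15, at 192 counts with METTL3 and 52 with vector in replicate 1 and 43 to 83 counts elsewhere, was higher by 2.03 (SE 0.473, adjusted p = 0.0054). H2AC20 was lower (−1.85, SE 0.441, adjusted p = 0.00635), at 60 counts with METTL3 and 131 with vector in replicate 1 and 55 to 95 counts elsewhere. H2BC21 and H2AC20 are a divergent pair with starts 236 bases apart on chromosome 1. Without vector replicate 2 the counts were 4 higher and 3 lower, where 28.4% of all genes were called in either direction, and without vector replicate 3 they were 3 and 2, where 33% were.

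In the same fit the other groups moved in different directions. The S phase list had 22 of 30 genes called lower and 0 higher, the G2 and M phase list 16 of 20 lower and 0 higher, and the histone processing list 11 of 20 lower and 2 higher. Chaperones had 6 of 15 lower and 2 higher, epithelial markers 4 of 6 lower and 0 higher, and the markers of other cell types 3 of 7 tested higher and 0 lower. H2AZ1, H3-3A and H3-3B were all lower, with log2 values of −0.62, −0.32 and −0.61. The most abundant replication-dependent genes were near 0 in comparison, with −0.02 for H1-2 (SE 0.141), 0.04 for H2AC6 (SE 0.13), 0.10 for H2BC12 (SE 0.123) and −0.01 for H4C9 (SE 0.212).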

How the data were processed

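RNA-seq of 3 METTL3-overexpressing and 3 empty-vector OVCAR5 libraries was analysed from the raw counts per gene that the authors deposited, whole numbers without normalization. The submitters' processing notes name fastp, HISAT2, hg38, Subread and featureCounts, and the paper names FastQC, HISAT2, hg38 and Subread; versions, annotation, strand setting and the handling of reads matching several genes are not given in the sources used here. The labels describe a stranded TruSeq paired-end preparation and the paper a NEBNext single-end one. Between 67.6% and 70.5% of counts from 1 to 20 were even, so counts divided by 2 were an alternative.

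Identifiers were matched without version to GENCODE 44, used for names, exons, stem-loops (at most 150 bases after the coding end) and shared 50-base stretches. Where RefSeq lists several starts for a histone gene, the one nearest its GENCODE start was taken, and for all promoters the first listed. Members, gene lists and comparisons were chosen with earlier results of these data known. In R 4.3.3, genes passing filterByExpr (22038) were scaled by TMM and fitted with edgeR 4.0.16 (glmQLFit robust, glmQLFTest), with Benjamini-Hochberg adjustment over all genes and a threshold of 0.05; the SE was obtained by dividing the size of the log2 value by the root of the F statistic. Functions were tested on simulated counts. Totals of 96633925 to 125463386 counts put about 100 counts behind 1 CPM. Limits given for counts of 0 cover counting error only and take counts as independent. Protein sequences were not analysed here.

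The replicate numbers are shared by the groups. Deviations from the group means correlated at 0.33, 0.12 and 0.17 for numbers 1, 2 and 3 over the genes tested, each above the minimum of 0.1, which meets the criterion for pairing, although the labels state none. Libraries of different number also passed, at 0.21 and 0.13, and over the 46 tested histone genes the same-number values were −0.18, 0.17 and −0.13. METTL3 was compared with vector without pairing, and the replicate number entered as a block in an alternative.

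Named were METTL3, the 3 highest genes of each type, up to 5 called genes per direction and comparison, H2AZ1, H3-3A, H3-3B, SLBP, NPAT, CASP8AP2, LSM10, LSM11, ZNF473, RN7SK, RMRP and RN7SL1, and genes at 0. Other genes were named after their values were seen. Alternatives were DESeq2 1.42.0, other size factors, other filters, a threshold of 0.01, the replicate number as a block, replicates 2 and 3 alone, and each library left out.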

Additional observations from a re-analysis of the deposited data

Results flagged for a closer look

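The METTL3 effect in replicate 1 differed from that in replicates 2 and 3, by the interaction of group and replicate 1 in edgeR, in 3 replication-dependent histone genes. The log2 value of this difference was 0.75 for H2BC21, 2.03 for H4C15 and −1.85 for H2AC20. Such calls were made for 4.35% of the 46 tested histone genes higher and 2.17% lower, below the 14.7% and 15.5% of all genes. Further genes past the threshold included METTL3, polyadenylated histone variants and factors of histone mRNA processing. METTL3 itself was at −0.36, since it exceeded vector at every replicate number but by less in number 1. The polyadenylated histone variants were at −0.62 for H2AZ1, −0.32 for H3-3A and −0.61 for H3-3B. Among the factors of histone mRNA synthesis and processing, SLBP was at −0.50, LSM10 at −0.52, CASP8AP2 at −0.31 and NPAT at −0.29. With 1 library per group in replicate 1, each of these values rests on a pair of libraries whose spread was taken from the others.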

How the results depend on the processing

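No histone gene was called for METTL3 against vector under any alternative on 5 or 6 libraries, and the replicate number as a replicate block gave 0 calls in either direction and changed no other call of a histone gene. With replicates 2 and 3 alone 1 was called higher and 1 lower, against 6.66% and 8.59% of all genes. For replicate 1 against replicates 2 and 3, the 11 calls became 3 at an adjusted p under 0.01, 10 to 13 under other tools, size factors, filters and halved counts, and 0 to 15 with a library left out. Over all genes the share called in that comparison was 9.06% in the main fit and 1.83% at an adjusted p under 0.01. It was 9.14% to 16.1% under the other tools, size factors, filters and halved counts. Leaving out a library of replicate 2 or 3 gave 1.02% to 3.39%. For the interaction, leaving out a library gave 2 to 4 higher and 1 to 3 lower, where 24.2% to 33% of all genes were called in either direction. For the 5 types, the log2 difference of the summed levels moved by less than their spread under every alternative run. That spread was the SD of the log2 sums within a group, pooled over both groups, and it includes the high replicate 1. Leaving out 1 library cannot move the difference by more than this spread, so for such alternatives the outcome was fixed in advance. The cause of the changes in the number of calls was not tested.

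Changes of sign among named genes were seen where values were near 0 or a library was left out. For METTL3 against vector the log2 values over the libraries left out ran from −0.16 to 0.36 for H2AC6, −0.16 to 0.28 for H2AC25, −0.00032 to 0.56 for H2BC12, −0.18 to 0.52 for H3C10, −0.17 to 0.56 for H3C12, −0.16 to 0.40 for H4C8, −0.28 to 0.32 for H4C16, −0.33 to 0.90 for H4C15, −0.33 to 0.24 for H1-2, −0.42 to 0.14 for H1-5, −0.48 to 0.31 for H2AC20, −0.19 to 0.16 for H3-3B, −0.20 to 0.077 for SLBP, −0.057 to 0.10 for NPAT, −0.076 to 0.021 for LSM11, −0.0028 to 0.088 for CASP8AP2 and −1.13 to 0.97 for RN7SL1. NPAT was at 0.0037 with no filter, 0.0047 with at least 10 counts in every library and 0.0041 with counts divided by 2. With replicates 2 and 3 alone the values were 0.21 for H1-5, −0.26 for H4C16, −0.40 for H4C15, 0.47 for H2AC20, 0.00031 for H2AZ1, 0.14 for H3-3B, 0.067 for SLBP, 0.070 for NPAT, 0.053 for LSM11 and 0.23 for RN7SL1.

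For replicate 1 against replicates 2 and 3 the values over the libraries left out ran from −0.046 to 0.74 for H2BC21, −0.23 to 1.84 for H4C15, −0.26 to 0.67 for H1-5, −0.57 to 1.24 for H2AC20, −0.25 to 0.33 for H2AZ1, −0.047 to 0.23 for H3-3A, −0.13 to 0.15 for CASP8AP2, −0.18 to 0.30 for LSM10, −0.18 to 0.12 for LSM11, −0.043 to 0.25 for ZNF473 and −0.16 to 0.16 for METTL3. METTL3 was at −0.0093 by DESeq2, −0.0092 with RLE factors and −0.020 with no filter, CASP8AP2 at −0.0098 with no filter and LSM11 at 0.046 with upper-quartile factors.

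Depth limits the low genes. The SE of the METTL3 effect had a median of 0.262 log2 for the 16 genes of at least 1 CPM and 0.425 for the 30 lower ones.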
